A study of Mus musculus with 11 samples.

Results

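The Ifi and Ifit genes are interferon-induced genes of several unrelated protein families that share the first letters of their symbols. They were taken as every gene whose symbol starts with Ifi in the deposited table of striatal RNA-seq counts, which gave 9 of the 1767 genes in the table. All 1767 genes had a deposited p-value under 0.05 for knockdown against control, so the 9 genes were selected on the same contrast that is described here. Their differences between the groups are therefore a description, and where a fit's thresholds are named for these genes, meeting or missing them is not a test.

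Type I interferons are secreted when a cell senses foreign or misplaced nucleic acid. They act through a surface receptor and the JAK-STAT pathway on promoters that carry an interferon-stimulated response element, and the induced proteins sense nucleic acids, bind viral RNA or block virus entry. In the brain, neurons, glia and vascular cells can all respond to interferon.

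The study knocked down NF-Y, a transcription factor that binds the CCAAT box, to examine which genes it controls in the striatum. C57BL/6 wild-type male mice were injected in the striata of both hemispheres at 6 weeks of age with AAV1/2 vectors. The 6 NT2 control samples came from mice given a vector for EmGFP and a non-targeting miRNA, and the 5 NF-YA/YC knockdown samples from mice given a vector for EmGFP and miRNAs against NF-YA and NF-YC. After 3 weeks the striata were dissociated with papain, EmGFP-positive and propidium iodide-negative cells were sorted, and their RNA was amplified and sequenced. The CAG promoter of both vectors is active in any infected cell, and the study's staining showed that most, but not all, EmGFP-positive cells carried the neuronal marker NeuN. Samples are named by the numbers in their labels, which run from 3 to 10 and from 21 to 23. The vectors of both groups thus shared the AAV, EmGFP and a miRNA cassette.

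Counts summed over the listed genes were 1.58 M at the lowest, 2.67 M at the median and 3.14 M at the highest in the control samples. In the knockdown samples they ranged from 1.95 to 3.01 M. Since other genes were not in the table, the whole depth of each library was larger. Levels are given as normalized counts, the estimated count divided by a TMM factor per sample. The values of the knockdown samples are given in the order of samples 4, 6, 8, 10 and 22.

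Nfyc, which encodes a targeted subunit, had normalized counts of 733 at the lowest, 898 at the median and 1206 at the highest in the controls. Nfyc had 975, 840, 887, 603 and 722 in the knockdown samples. The groups overlapped, and the log2 fold change was -0.19 (SE 0.15), or -0.32 (SE 0.14) with the authors' scaling factors. With the mean level of the listed glial markers as a covariate it was -0.52 (SE 0.17). The normalized counts of Nfyc in these samples did not by themselves separate the groups. None of the 8 neuronal markers and none of the 13 markers of striatal projection neurons that were listed is in the table, so the neuronal identity of the sorted cells was not tested here.

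All 9 Ifi and Ifit genes had higher fitted levels in the knockdown samples, beside 42.5% of all listed genes. The log2 fold changes ran from 0.87 to 1.43, with a median of 1.24 against -0.13 over all listed genes. All 9 had an unadjusted p under the threshold of 0.05 and a fold change above 1.2 in the edgeR fit across the table, beside 40.7% of all listed genes called higher, and since the genes were chosen by this contrast nothing is read from that count. In 3 of the 9, Ifi203, Ifit1 and Ifitm7, every knockdown sample was above every control, beside 11.4% of all listed genes. The samples are bulk RNA, in which more responding cells and more RNA per cell cannot be told apart.

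**Figure D1:**
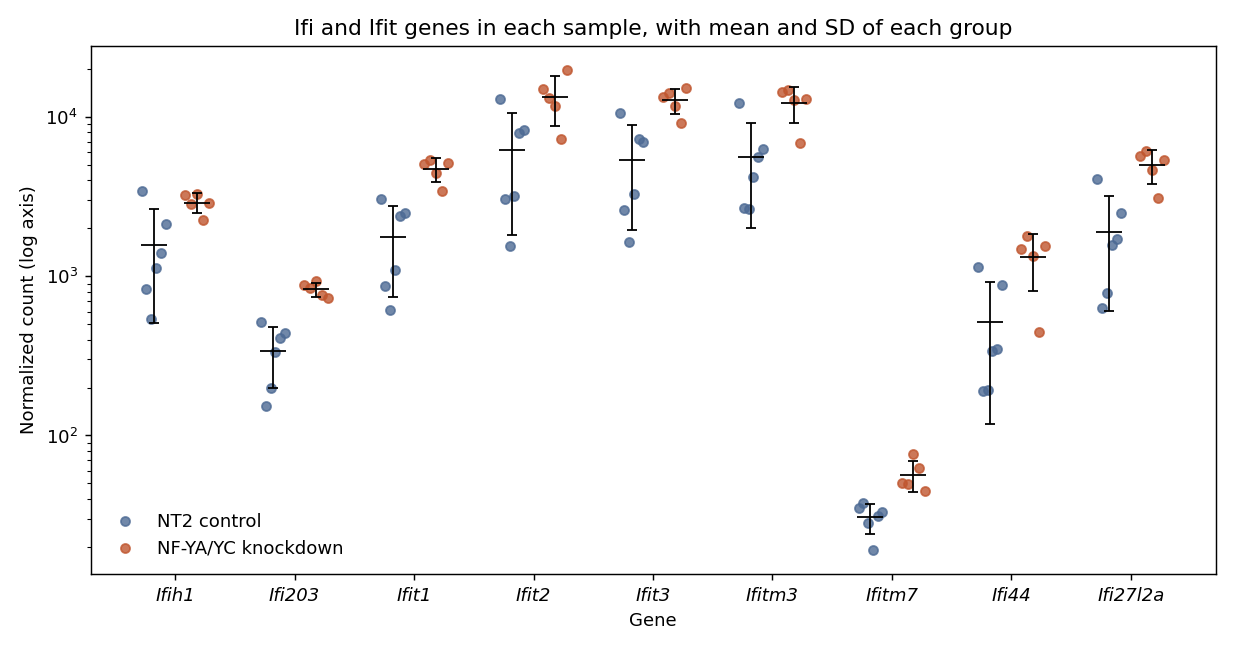
Normalized counts (log axis) of the 9 Ifi and Ifit genes in the 6 NT2 control samples (blue) and the 5 NF-YA/YC knockdown samples (orange); each point is a sample, and the black bars give the mean and SD of each group. Knockdown samples lie above all controls for Ifi203, Ifit1 and Ifitm7, and the groups overlap for the other 6 genes.

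Ifih1 encodes MDA5, the cytosolic sensor of long double-stranded RNA that signals through MAVS. It lies on the minus strand at chr2:62433850-62484312 (mm9, the build in the submitters' processing notes). Its normalized counts in the controls were 537 at the lowest, 1261 at the median and 3449 at the highest. Ifih1 had 3233, 2824, 3292, 2253 and 2886 in the knockdown samples. Control 3 was above every knockdown sample, and the other 5 controls were below every one. Its mean was 1578 ± 1066 (SD, n = 6) in the controls and 2898 ± 415 (SD, n = 5) after knockdown, and its log2 fold change was 0.88 (SE 0.37). With the authors' scaling the log2 fold change was 0.77 (SE 0.36) and Ifih1 no longer met the threshold. With the glial marker level as a covariate it was 0.25 (SE 0.37), and the threshold was also missed in 7 of the 11 fits that left out 1 sample.

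Ifi203 belongs to the PYHIN family of proteins, whose HIN domains bind DNA. It lies on the minus strand at chr1:175850534-175872623 (mm9). Its normalized counts in the controls were 152 at the lowest, 372 at the median and 513 at the highest. Ifi203 had 877, 839, 928, 758 and 732 in the knockdown samples. The groups did not overlap, and the 5 knockdown samples lay closer together than the controls, the highest being 1.27 times the lowest against 3.37 times in the controls. Ifi203 had a log2 fold change of 1.28 (SE 0.27). Ifi203 is part of a cluster of related genes, and 6 neighbours of that family are in the table, with log2 fold changes from 0.88 for Mndal to 1.59 for BC094916. RefSeq names 5 of them with the letters Ifi (BC094916 as Ifi214, Pydc4 as Ifi213, Pyhin1 as Ifi209, Pydc3 as Ifi208 and AI607873 as Ifi207), and they are not among the 9 genes because the table gives older symbols. Reads from these similar genes may have been divided among them, so the count of Ifi203 is uncertain. Only 1 of its 11 counts was whole (within 0.001), beside 52.9% of all counts. In Ifi44, which overlaps no other gene in RefSeq, only 1 of the 11 counts was whole as well.

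The Ifit proteins are built of tetratricopeptide repeats, and Ifit1 binds RNA whose cap lacks the methylation of host mRNA. The 3 Ifit genes lie on the plus strand within chr19:34625184-34724499 (mm9), in the order Ifit2, Ifit3 and Ifit1. Ifit1 had normalized counts of 616 at the lowest, 1740 at the median and 3052 at the highest in the controls. Ifit1 had 5070, 5402, 4475, 3418 and 5131 in the knockdown samples. Every knockdown sample was above every control, with knockdown 10 closest to control 3. The log2 fold change of Ifit1 was 1.43 (SE 0.36).

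Ifit2, a further protein of the family, had normalized counts of 1549 at the lowest, 5560 at the median and 13042 at the highest in the controls. Ifit2 had 15067, 13201, 11702, 7243 and 19749 in the knockdown samples. The groups overlapped, with 3 of the 6 controls above knockdown 10 and 3 of the 5 knockdown samples above every control. Its fitted log2 fold change was 1.12 (SE 0.46), and with the glial covariate 0.70 (SE 0.55), under which it was not called. Ifit2 was also not called without control 5, control 9, knockdown 4 or knockdown 22.

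Ifit3, also of this family, had normalized counts of 1637 at the lowest, 5108 at the median and 10634 at the highest in the controls. Ifit3 had 13281, 14200, 11808, 9178 and 15132 in the knockdown samples. Control 3 was above knockdown 10, and no other control was above any knockdown sample. On the log2 scale Ifit3 was 1.24 (SE 0.40) higher after knockdown, and 0.83 (SE 0.48) higher with the glial covariate, under which it was not called. The table also holds I830012O16Rik, named Ifit3b in RefSeq, a close copy of Ifit3 in the same cluster, with a log2 fold change of 1.28 (SE 0.38). Reads of the copies cannot be assigned with certainty, and in Ifit3 only 2 of the 11 counts were whole. In the table's coordinates Ifit1 lies within the span of 2010002M12Rik on the minus strand (Ifit1bl2 in RefSeq), which had a log2 fold change of 1.22 (SE 0.38). Gm14446 (Ifit1bl1 in RefSeq), whose RefSeq span overlaps that of Ifit1, had one of 2.52 (SE 0.55). Reads of overlapping genes cannot be separated where strand was not recorded.

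Ifitm3 is a membrane protein that hinders the fusion of viruses in endosomes. It lies on the minus strand at chr7:148195489-148196643 (mm9). Its normalized counts in the controls were 2633 at the lowest, 4890 at the median and 12313 at the highest. Ifitm3 had 14374, 14693, 12782, 6833 and 12948 in the knockdown samples. Knockdown 10 was below control 3 and above the other 5 controls, and the other 4 knockdown samples were above all controls. The log2 fold change of Ifitm3 was 1.14 (SE 0.37), and 0.50 (SE 0.37) with the glial covariate, under which it was not called.

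Ifitm7, of the same membrane protein family, had the fewest reads, with estimated counts between 22.8 and 69.7. It lies on the minus strand at chr16:13981795-13986960 (mm9), within the span of Bmerb1 in RefSeq, and the table gives no Ensembl identifier for it. Its normalized counts in the controls were 19.02 at the lowest, 32.2 at the median and 37.6 at the highest. Ifitm7 had 50.4, 49.6, 76.0, 62.1 and 44.7 in the knockdown samples. The groups did not overlap, and the log2 fold change was 0.87 (SE 0.26). Ifitm7 fell below the minimum of 200 for the highest count that the study's methods give.

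Ifi44 is a cytoplasmic protein induced by interferon, at chr3:151393887-151412923 on the minus strand (mm9). Its normalized counts in the controls were 191 at the lowest, 344 at the median and 1144 at the highest. Ifi44 had 1491, 1781, 1347, 449 and 1548 in the knockdown samples. Knockdown 10 was below controls 3 and 23, and the other 4 knockdown samples were above all controls. The log2 fold change of Ifi44 was 1.36 (SE 0.49), and 0.50 (SE 0.47) with the glial marker level as a covariate, where it no longer met the threshold.

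Ifi27l2a, a small hydrophobic protein strongly induced by interferon, lies at chr12:104672083-104681890 on the minus strand (mm9). Its normalized counts in the controls were 628 at the lowest, 1646 at the median and 4107 at the highest. Ifi27l2a had 5709, 6142, 4632, 3089 and 5346 in the knockdown samples. Control 3 was above knockdown 10 and below the other 4 knockdown samples. Ifi27l2a had a log2 fold change of 1.40 (SE 0.40), and of 0.69 (SE 0.39) with the glial covariate, where it was not called. Ifi27 lies within its span in RefSeq, and none of its 11 counts was whole.

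Per kb of the longest annotated transcript (GENCODE M21), Ifitm3 had the highest mean level in the controls, at 8277 ± 5304 normalized counts per kb (SD, n = 6). It was followed by Ifi27l2a, Ifit3, Ifit2, Ifit1, Ifih1, Ifi44, Ifi203 and Ifitm7, the last at 16.9 ± 3.61 (SD, n = 6). Neighbours in this order overlapped over the control samples, except Ifi203 and Ifitm7. The order of the means was the same in the knockdown samples, from 18180 ± 4697 for Ifitm3 to 31.0 ± 6.93 for Ifitm7 (SD, n = 5). There Ifit3 and Ifit2, Ifit1 and Ifih1, and Ifi203 and Ifitm7 did not overlap.

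The 9 genes varied more among the controls than among the knockdown samples on the log2 scale. Control 3 held the highest control value of 8 genes, all but Ifitm7. It also had the smallest summed count, 1.58 M, and a TMM factor of 0.65 (0.66 with the authors' scaling). In estimated counts, before scaling, control 3 was the highest control only for Ifitm3 among these 8 genes. For Ifit1 it had 1969, against 2940 in control 21. Controls 5 and 7 held the lowest and second lowest control values of the same 8 genes. Among the knockdown samples, knockdown 10 held the lowest value of 7 genes. For Ifit2 the highest control was 8.42 times the lowest, and the highest knockdown sample 2.73 times the lowest. The plot of deviations from the group means shows the shared course of the 8 genes.

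**Figure D2:**
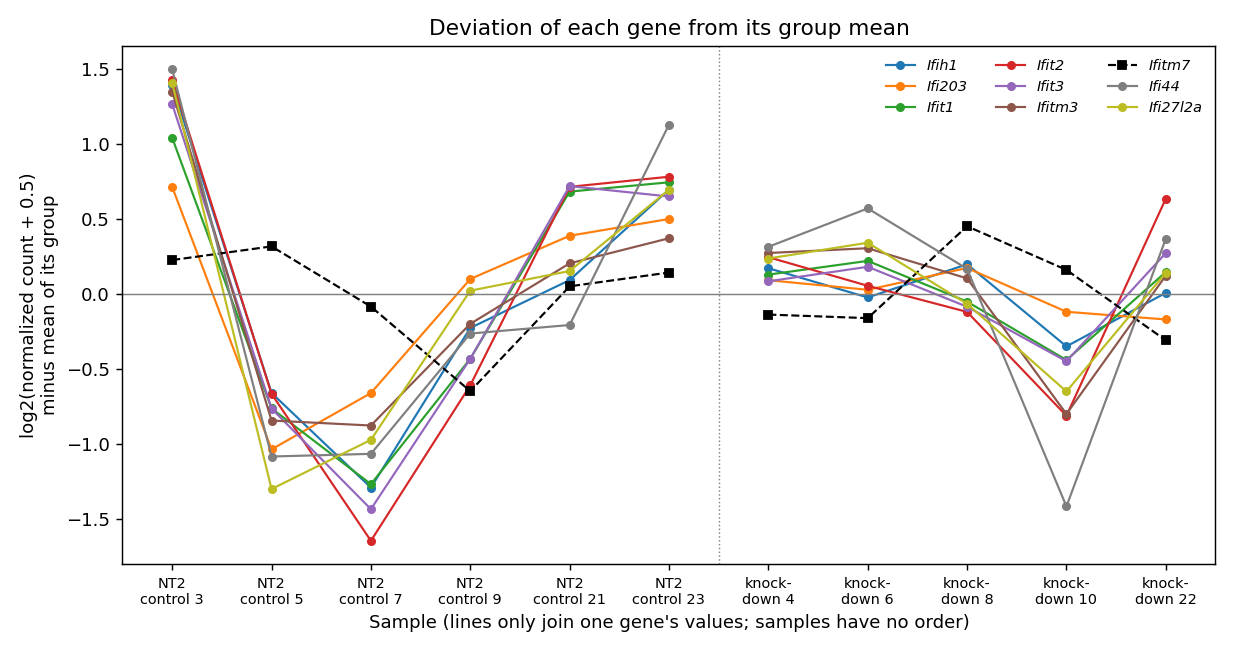
Deviation of log2(normalized count + 0.5) from the mean of its group for the 9 Ifi and Ifit genes (coloured lines; Ifitm7 black and dashed) in each of the 11 samples; lines only join the values of a gene. Apart from Ifitm7, the genes are high in control 3 and low in controls 5 and 7, and all but Ifi203 are lowest among the knockdown samples in knockdown 10.

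With the group means removed, the 8 genes other than Ifitm7 had pairwise Pearson correlations from 0.76 to 0.99 over the 11 samples (28 pairs, median 0.91). The highest was that of Ifit1 and Ifit3, at 0.99. The 8 pairs with Ifitm7 had correlations from -0.08 to 0.22. Without controls 3 and 7, the samples farthest from the median, the 28 correlations ran from 0.59 to 0.99. The samples share the sorting and amplification steps, and the correlations are a description.

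The genes of the table most like the mean profile of the 8 genes within the groups, among 1320 others with a highest count of at least 200, were Rtp4, Oasl2, Irf7, I830012O16Rik, Usp18, Oas1a, Isg15, Mndal, Oas1g and Ms4a4c, with Pearson correlations from 0.97 to 0.99 over 11 samples. In all, 41 of the 1320 genes had a correlation above 0.9, and 7 of these 10 genes stayed among the 10 most alike with Spearman's correlation or without controls 3 and 7. Irf7, the transcription factor that amplifies interferon production, had a correlation of 0.99 (Spearman 0.98), and 0.98 without controls 3 and 7. Its log2 fold change was 1.38 (SE 0.43). The least alike were E130114P18Rik, Adk and H2afv, at -0.88, -0.89 and -0.92.

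Within the samples numbered 3 to 10, with 4 of each group, all 9 genes had higher mean log2 levels in the knockdown samples, by 0.998 for Ifitm7 to 1.96 for Ifit1, and the groups did not overlap in 3 of the 9, beside 17.7% of all listed genes. Within the samples numbered 21 to 23, with 2 controls and 1 knockdown sample, the differences ran from 0.47 for Ifitm7 to 1.47 for Ifi44, and knockdown 22 was above both controls for all 9 genes, beside 43.2% of all listed genes. The labels do not say what the number series stand for.

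Of 98 listed genes of the interferon pathway, 34 are in the table, and all 34 had higher levels in the knockdown samples with a median log2 fold change of 1.03. All 34 met the thresholds in the edgeR fit, beside 40.7% of all listed genes called higher, and 9 of the 34 met them with the glial marker level as a covariate, beside 18.8%. Like the Ifi and Ifit genes they had been selected on this contrast. They comprised 1 of 8 ligands, none of 6 receptors, 1 of 12 signal transducers and factors, 5 of 7 negative regulators, 4 of 14 sensors and adaptors, and 23 of 51 effectors. The ligand was Ifnb1, interferon beta, whose mean normalized level was 55.3 ± 21.1 in controls (SD, n = 6) and 126 ± 60.2 after knockdown (SD, n = 5), with overlapping groups. Ddx58, which encodes the RNA sensor RIG-I and acts beside Ifih1, had a log2 fold change of 1.13 (SE 0.21), and was among the 8 of the 34 genes whose groups did not overlap, beside 11.4% of all listed genes.

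Markers of other cell types also differed in level between the samples. Of 38 listed markers of astrocytes, oligodendrocytes and microglia, the table holds 7, namely 5 of astrocytes, 1 of oligodendrocytes and 1 of microglia. All 7 had a lower mean after knockdown, where 42.5% of all listed genes had higher fitted levels. P2ry12 of microglia did not meet the thresholds in the edgeR fit. Like the Ifi and Ifit genes, the 7 markers had been selected on this contrast. Their summed normalized counts were 49059 in control 3, 93388 in control 5, 81542 in control 7, 65633 in control 9, 112034 in control 21 and 67947 in control 23. The sums in the knockdown samples were 40895, 41442, 48169, 48934 and 55708. Control 3, the highest control for 8 of the 9 Ifi and Ifit genes, had the lowest sum of the controls. The mean log2 level of these 8 genes in control 3 was 1.26 above the control mean. In control 21, which had the highest sum, it was 0.34 above. Knockdown 4, with the lowest sum of its group, and knockdown 22, with the highest, were both 1.64 above. For the marker of oligodendrocytes and that of microglia, control 9 was the lowest control. The most abundant of the 7 markers was P2ry12 of microglia, and none of the 7 was at 0 in any sample. With the mean level of these markers as a covariate, the log2 fold changes of the 9 genes were 0.25 to 1.03, with a median of 0.70, and 3 of the 9, Ifi203, Ifit1 and Ifitm7, met the thresholds, beside 18.8% of all listed genes called higher in that fit. The covariate was -0.95 to -0.07 in the knockdown samples, -0.51 in control 3 and 0.04 to 1.15 in the other controls. Since its markers were selected on the same contrast, it partly follows the group. That fit therefore cannot separate glial content from group. The part of the glial cells in the result was not tested.

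Of 12 markers of endothelial cells and pericytes, the table holds 8, each with a lower mean after knockdown, and with summed normalized counts of 9813 ± 1873 (SD, n = 6) in the controls and 6401 ± 1280 after knockdown (SD, n = 5). These 8 markers had also been selected on this contrast, and Pecam1 did not meet the thresholds in the edgeR fit. The most abundant was Slco1a4, and none was at 0. Of 18 markers of infiltrating immune cells only Ly6c2 is in the table, with 3000 normalized counts in control 3, 35.8 in control 5, 86.1 in control 7, 139 in control 9, 603 in control 21 and 492 in control 23. Ly6c2 had 2539, 2617, 1581, 762 and 1552 in the knockdown samples. Its highest control was control 3 and its lowest knockdown sample knockdown 10, as in 7 of the 9 Ifi and Ifit genes, Ifi203 and Ifitm7 being the exceptions. The part of these cells in the result was not tested.

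Promoters of 8 of the 9 genes were matched by gene identifier in RefSeq (GRCm38.p6), each from 250 bases before to 50 bases after the start, and Ifi27l2a had none. The interferon-stimulated response element was read as GAAA, any 2 bases and GAAA on either strand. It was found in 5 of the 8, Ifih1, Ifi203, Ifit1, Ifit3 and Ifitm3, and in 3.99% of the 27025 genes with a promoter. In Ifit1 and Ifit3 it occurred at 2 places each, before the start. In Ifitm3 it also occurred at 2 places, after the start, and in Ifih1 at 1 place after the start. The gamma-activated site TTCNNNGAA was found in Ifit2 and Ifitm3 and in 9.55% of genes, and in Ifitm3 it overlapped a response element. The CCAAT box was found in Ifi203, Ifit2 and Ifit3 and in 41.1% of genes, and TATAAA in none of the 8 and in 15.7% of genes. A match is a description of the letters in this window.

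**Figure D3:**
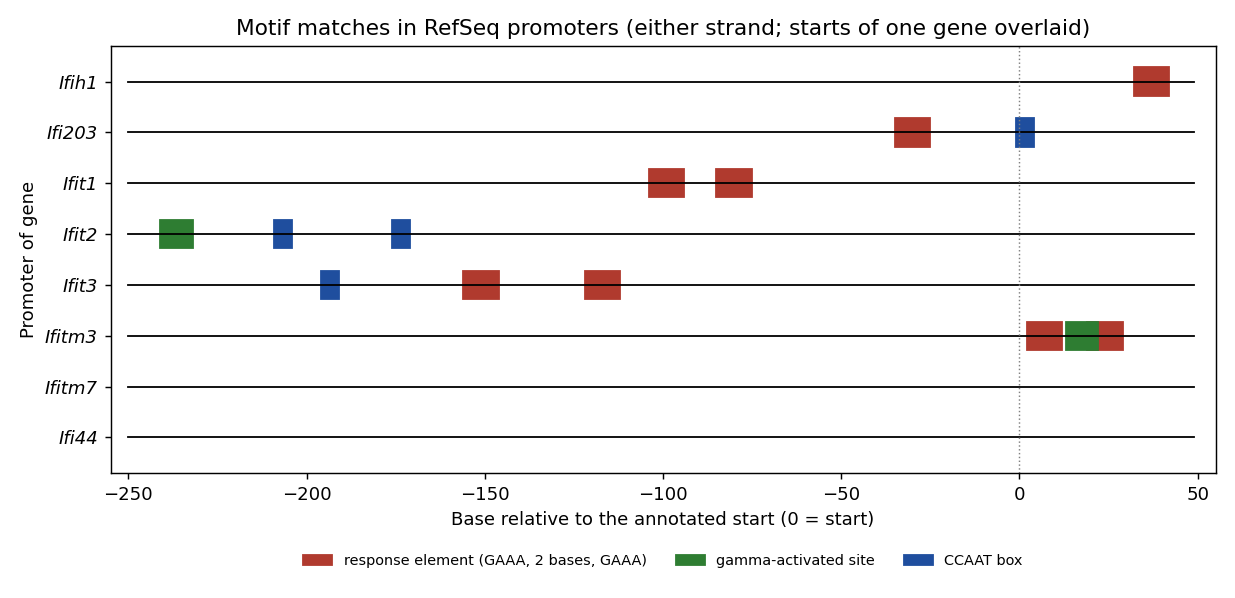
Matches to the response element (red), the gamma-activated site (green) and the CCAAT box (blue) on either strand in the RefSeq promoters of 8 Ifi and Ifit genes, by base relative to the annotated start. The response element lies before the start in Ifi203, Ifit1 and Ifit3 and after it in Ifih1 and Ifitm3, and Ifitm7 and Ifi44 hold none of these motifs.

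The sequences around the response elements that lie before the start are shown, to give the letters of the matches in Ifi203, Ifit1 and Ifit3. Capitals mark the element, which is read here on the opposite strand in Ifit1 and Ifit3 and on the gene's own strand in Ifi203. The windows are at chr1:173942503-173942542 on the minus strand for Ifi203, chr19:34640770-34640828 on the plus strand for Ifit1 and chr19:34583358-34583431 on the plus strand for Ifit3 (GRCm38.p6), upstream of each gene.
Ifi203: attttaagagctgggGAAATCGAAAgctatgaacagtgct
Ifit1: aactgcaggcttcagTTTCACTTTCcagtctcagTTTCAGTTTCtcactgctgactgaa
Ifit3: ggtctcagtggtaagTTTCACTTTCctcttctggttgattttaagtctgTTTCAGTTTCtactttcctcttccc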

How the data were processed

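RNA-seq counts of 11 samples were used, 6 with the NT2 vector and 5 with the NF-YA/YC vector, grouped by their labels. The authors counted reads with Strand NGS (version not given in the sources used here; the submitters' processing notes name mm9) and deposited estimated counts, partly fractional and not normalized. They also deposited log2 values, scaled per sample and centred per gene, from which their scaling factors were recovered (1247 genes with over 50 counts in every sample). The deposited p-value was used only to count genes under 0.05, and the deposited fold change columns, which compare knockdown with control, were not used.

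Estimated counts of all 1767 genes were rounded and fitted with edgeR 4.0.16 (R 4.3.3), quasi-likelihood test, TMM normalization, group as the only term. The thresholds were an unadjusted p of 0.05 and a fold of 1.2. TMM assumes that few genes differ, an assumption that genes selected on this contrast break. Relative to it, the authors' scaling shifted the log2 fold changes by a median of -0.13. A count of 0.5 was added before log2. Within the groups, chi-square values between samples were 20.5 to 161 per degree of freedom over 25 pairs, above counting noise in every pair, and each sample was kept. The series design gives 6 and 5 injected mice.

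The genes named are the Ifi and Ifit genes, the listed pathway and marker genes in the table, the 10 most and 3 least alike genes and Nfyc; the neighbours of Ifi203 and Ifit1 were named after their values were seen. The members and lists were chosen with earlier results of these data known. Alternatives were DESeq2 1.42.0, its size factors, the authors' scaling, a minimum count of 200, other fold thresholds, the number series or the glial marker level as a covariate, other pseudocounts and element spacings, and leaving out each sample. Leaving out samples from the likeness was chosen after seeing the data.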

Additional observations from a re-analysis of the deposited data

Results flagged for a closer look

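Of 18 gene and group combinations of the Ifi and Ifit genes, 2 held a sample far from the others of its group in normalized counts, both in Ifitm3. The rule was not applied on the log2 scale. There Ifi44 in knockdown 10 deviated by -1.42 from its group mean, against 0.17 to 0.57 in the other knockdown samples. Control 3 had 12313 normalized counts, far above the other controls, and knockdown 10 had 6833, far below the other knockdown samples. Chance places about 1 in 20 groups beyond this limit.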

How the results depend on the processing

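All 9 Ifi and Ifit genes had higher fitted levels in the knockdown samples with the authors' scaling, with DESeq2's size factors, with either covariate and without each sample in turn. The median log2 fold change was 1.05 to 1.53 when each sample was left out in turn. With the glial marker level as a covariate, 3 of the 9 genes met the thresholds, as did 508 of the listed genes in place of 1177 and 9 of the 34 pathway genes. The glial markers were themselves selected on this contrast, and the cause was not tested. With a minimum of 200 for the highest count, 1328 genes were fitted, and 765 of them met the thresholds. When each sample was left out in turn, 7 to 9 of the 9 met the thresholds. Of the 1767 listed genes, 1059 to 1200 met them in either direction in the same fits. Ifih1 and Ifit2 missed them without control 5, control 9, knockdown 4 or knockdown 22. Ifih1 also missed them without control 21, knockdown 6 or knockdown 8. The groups did not overlap in 6 genes with raw counts (7.47% of all listed genes), and in 3 to 7 when each sample was left out (12.4% to 22.9%), with 7 without control 3 (22.9%) and 7 without knockdown 10 (15.4%). The median within-group correlation of the 8 genes with the rest, 0.96, was 0.92 without the 2 farthest samples. The response element was found in 1 gene, Ifi44, with units 1 base apart (3.70% of all genes). With units 3 bases apart it was found in 3, Ifih1, Ifi44 and Ifit3 (3.17%). The groups share no replicate number, and no paired analysis was possible because of that.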
